A study of Homo sapiens with 6 samples.

Results

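Polyamine metabolism was followed through 10 genes in HEK293 cells, a human embryonic kidney line, 72 h after transfection with control siRNA or BAHD1 siRNA from one supplier. BAHD1 is a chromatin protein that takes part in heterochromatin formation and gene silencing. Each group held 3 biological replicates, with one array of 54675 probe sets hybridised per replicate, and both groups were HEK293 cells transfected with the same lipid reagent. No siRNA sequence was used here, so the number of siRNAs behind the knockdown and their effects on other transcripts were not examined. The members are SAT1, SAT2, ODC1, AMD1, SRM, SMS, OAZ1, OAZ2, AZIN1 and SMOX, and every probe set annotated to one of them and to no other gene was taken. That gave 19 probe sets, of which 17, covering all 10 genes, were bright enough to be tested among 27458 probe sets in all. The genes were chosen by their place in the pathway with the log2 fold changes of this comparison already known, so the differences between the groups below describe the members and are not independent evidence about them.

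Polyamines are small positively charged molecules that bind nucleic acids and are needed for growth. ODC1 makes putrescine from ornithine, AMD1 supplies the aminopropyl donor from S-adenosylmethionine, and the synthases SRM and SMS build spermidine and then spermine. SAT1 acetylates spermidine and spermine for export or oxidation, SMOX oxidises spermine directly, and the antizymes OAZ1 and OAZ2 bind ornithine decarboxylase and send it to the proteasome. AZIN1, a decarboxylase relative without activity, binds antizyme in its place. Much of the control of this pathway is known to act on translation and protein turnover, which arrays do not measure.

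SAT1 and ODC1 had higher signals in BAHD1 siRNA cells, by 0.46 to 0.58 and 0.27 on the log2 scale, both OAZ1 probe sets and 1 of 3 for AZIN1 had lower ones with no overlap between the groups, and the synthase genes SRM and SMS had log2 fold changes of 0.03 and -0.03. In the intensity-trend fit, limma with a prior variance that follows the mean signal and a Benjamini-Hochberg adjusted p under 0.05 over all kept probe sets, 4 of the 17 member probe sets were called. They were the 3 for SAT1 and the 1 for ODC1, all higher. Of all kept probe sets 4.45% were called, 2.17% higher and 2.28% lower, so that 48.8% of the calls were higher; with the array medians centred this share was 11.2%. Below, rose is used only of such calls. The same model with one prior variance for all probe sets called 0 members and 0% of all probe sets. At an unadjusted p under 0.05 that fit held 4 members and 17.6% of all probe sets. The members were mostly bright, with 13 of the 17 in the brightest quartile. With the filter at the 75th percentile of signal, the intensity-trend fit called 4 of 15 member probe sets, against 1622 of 13876 in all. The groups did not overlap in 4 member probe sets that were higher and 3 that were lower, against 13.4% and 12.2% of all kept probe sets. The median log2 fold change was 0.03 over the member probe sets and 0.01 over all kept ones, and the members ran from -0.19 to 0.58. In bulk RNA, fewer cells with a transcript and less of it per cell cannot be told apart.

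The BAHD1 transcript itself, read by 1 probe set, had signals of 62.9, 55.7 and 46.7 in control cells and 36.6, 46.8 and 41.2 in BAHD1 siRNA cells. The groups overlapped. The difference of the log2(signal + 1) means was -0.40, or 76.0% of control when converted back from log2. It was not called (limma, adjusted p = 0.251). Of 9 genes this line is known to express, 7 had a kept probe set, and the summed signal of the list was 4573 to 5030 in control and 4241 to 4522 in BAHD1 siRNA arrays. Of these 7, NEFL (0.37) and NEFM (0.58) rose and VIM fell by 0.32 on the log2 scale. VIM, at 2653 to 3679 over both groups, made up most of the summed signal. KRT8 (26.2 to 40.7) and PAX2 (24.3 to 46.1) were dim, and LHX1 had no kept probe set. Of 9 markers of leukocytes, endothelium, hepatocytes and fibroblasts, only PECAM1 and COL1A1 had a kept probe set. The summed signal of that list was 183 to 245 in control and 242 to 258 in BAHD1 siRNA arrays. COL1A1 was well above the filter level, at 127.3 to 207.3 over both groups, with a log2 fold change of 0.37 that was not called. PECAM1 was at 13.8 to 20.1, PTPRC (CD45) at 0.5 to 11.6 and ALB at 1.4 to 10.1. The 24 spiked-in poly-A control probe sets gave more signal in the knockdown arrays without exception (median 1.49 times control), and the 3' to 5' signal ratio of beta-actin, a sign of RNA integrity, was 1.47 to 1.54 in control and 1.49 to 1.67 in knockdown arrays. For GAPDH the ratio was slightly higher in the knockdown without overlap, with a control range of 0.926 to 0.955 and a knockdown range of 0.956 to 0.966. Their part in the differences below was not tested.

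Promoter sequences are shown for the members whose groups did not overlap at any kept probe set: SAT1 and ODC1, which rose, and OAZ1, which was lower. They are the 250 bases before the first listed start site, from RefSeq on GRCh38.p14, read 5′ to 3′ on the gene's strand. Capitals mark a CCAAT box (CCAAT), a GC box (GGGCGG), an E-box (CACGTG, the site of MYC and its partners) or a TATA core (TATAA), each searched on both strands.
SAT1 (chrX:23782923-23783172, plus strand): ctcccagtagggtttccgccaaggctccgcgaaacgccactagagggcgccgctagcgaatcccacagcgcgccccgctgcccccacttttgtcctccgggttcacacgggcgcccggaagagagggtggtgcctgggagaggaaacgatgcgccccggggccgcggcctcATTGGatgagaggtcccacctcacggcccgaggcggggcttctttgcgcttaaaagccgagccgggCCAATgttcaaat
ODC1 (chr2:10448328-10448577, minus strand): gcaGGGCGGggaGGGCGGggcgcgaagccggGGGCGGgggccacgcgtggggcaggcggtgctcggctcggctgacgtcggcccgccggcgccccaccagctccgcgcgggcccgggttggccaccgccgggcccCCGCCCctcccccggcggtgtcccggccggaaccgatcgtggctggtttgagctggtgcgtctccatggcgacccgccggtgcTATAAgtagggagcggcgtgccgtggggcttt
OAZ1 (chr19:2269236-2269485, plus strand): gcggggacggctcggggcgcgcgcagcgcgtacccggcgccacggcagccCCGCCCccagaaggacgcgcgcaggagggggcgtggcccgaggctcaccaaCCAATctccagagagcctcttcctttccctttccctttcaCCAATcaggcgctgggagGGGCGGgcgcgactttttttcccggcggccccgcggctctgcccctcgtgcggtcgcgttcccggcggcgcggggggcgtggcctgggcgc
No 2 of these windows carried the same set of motifs. SAT1 held 2 CCAAT boxes, the nearer one beginning 13 bases before the start, and no GC box. ODC1 held 4 GC boxes and a TATA core beginning 32 bases before the start, and OAZ1 held 2 GC boxes and 2 CCAAT boxes. Of 35116 listed promoter windows of this length, 32.0% held a CCAAT box, 42.6% a GC box, 18.9% a TATA core and 6.34% an E-box. These windows include every listed start of a gene, while each member was read at its first listed start only. Of the 8 members with a listed promoter, 5 held a CCAAT box, 6 a GC box and 2, ODC1 and AMD1, a TATA core. The E-box letters stood in 1, SRM. CpG dinucleotides numbered 25 in the SAT1 window, 36 in ODC1 and 35 in OAZ1, and 11 to 40 over the 8, against a median of 11 over all windows. AZIN1 and SMOX were not among them.

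SAT1, which encodes the acetyltransferase that starts polyamine breakdown, rose at each of its 3 probe sets. At 213988_s_at the signals were 341, 379 and 390 in control cells and 497, 575 and 587 in BAHD1 siRNA cells. Every knockdown array lay above every control array, with a gap wider than the range of the controls. Mean log2 signals were 8.53 ± 0.10 (SD, n = 3) for control and 9.11 ± 0.13 (SD, n = 3) for the knockdown, a log2 fold change of 0.58 ± 0.09 (SE), or 149% of the control level. This was called in the intensity-trend fit with any single array left out, where it ran from 0.52 to 0.65.

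The other SAT1 probe sets varied more between the control arrays. At 203455_s_at the control signals were 708, 907 and 1079 and the BAHD1 siRNA signals 1152, 1343 and 1502. At 210592_s_at they were 790, 1015 and 844 against 1097, 1201 and 1331. The groups were separated in both, but the highest control array lay close below the lowest knockdown array. The log2 fold changes were 0.58 ± 0.14 (SE) and 0.46 ± 0.10 (SE). Leaving out control replicate 1 (0.42) or replicate 2 (0.60) ended the call of 203455_s_at, as did leaving out replicate 2 (0.57) or 3 (0.49) of the BAHD1 siRNA arrays, quantile normalisation (0.60), centred array medians (0.44) and no filter on dim probe sets. That of 210592_s_at ended without control replicate 1 (0.38) and without knockdown replicate 2 (0.46) or 3 (0.39), and with the array medians centred (0.32). A further probe set, annotated to SAT1 and ZSWIM8 together, was dim, at 1.4 to 11.4 over the 6 arrays, and was not used.

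SAT2, a relative of SAT1, was read by 1 probe set. Its signals were 356, 345 and 324 in control cells and 328, 318 and 315 in BAHD1 siRNA cells. The lowest control array fell inside the knockdown range, and the log2 fold change of -0.09 ± 0.08 (SE) was not called. SMOX, the spermine oxidase gene, had 1 kept probe set, with signals of 63.7, 69.4 and 56.8 against 73.1, 59.9 and 90.8. The groups overlapped (log2 fold change 0.22 ± 0.17, SE, not called). Its 2 other probe sets did not pass the filter on dim signals. One of them, 1555680_a_at, was listed at 4.0, 16.1 and 12.8 in control and 24.7, 17.3 and 17.0 in BAHD1 siRNA cells, and the other stayed at 2.6 to 15.4.

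**Figure D1:**
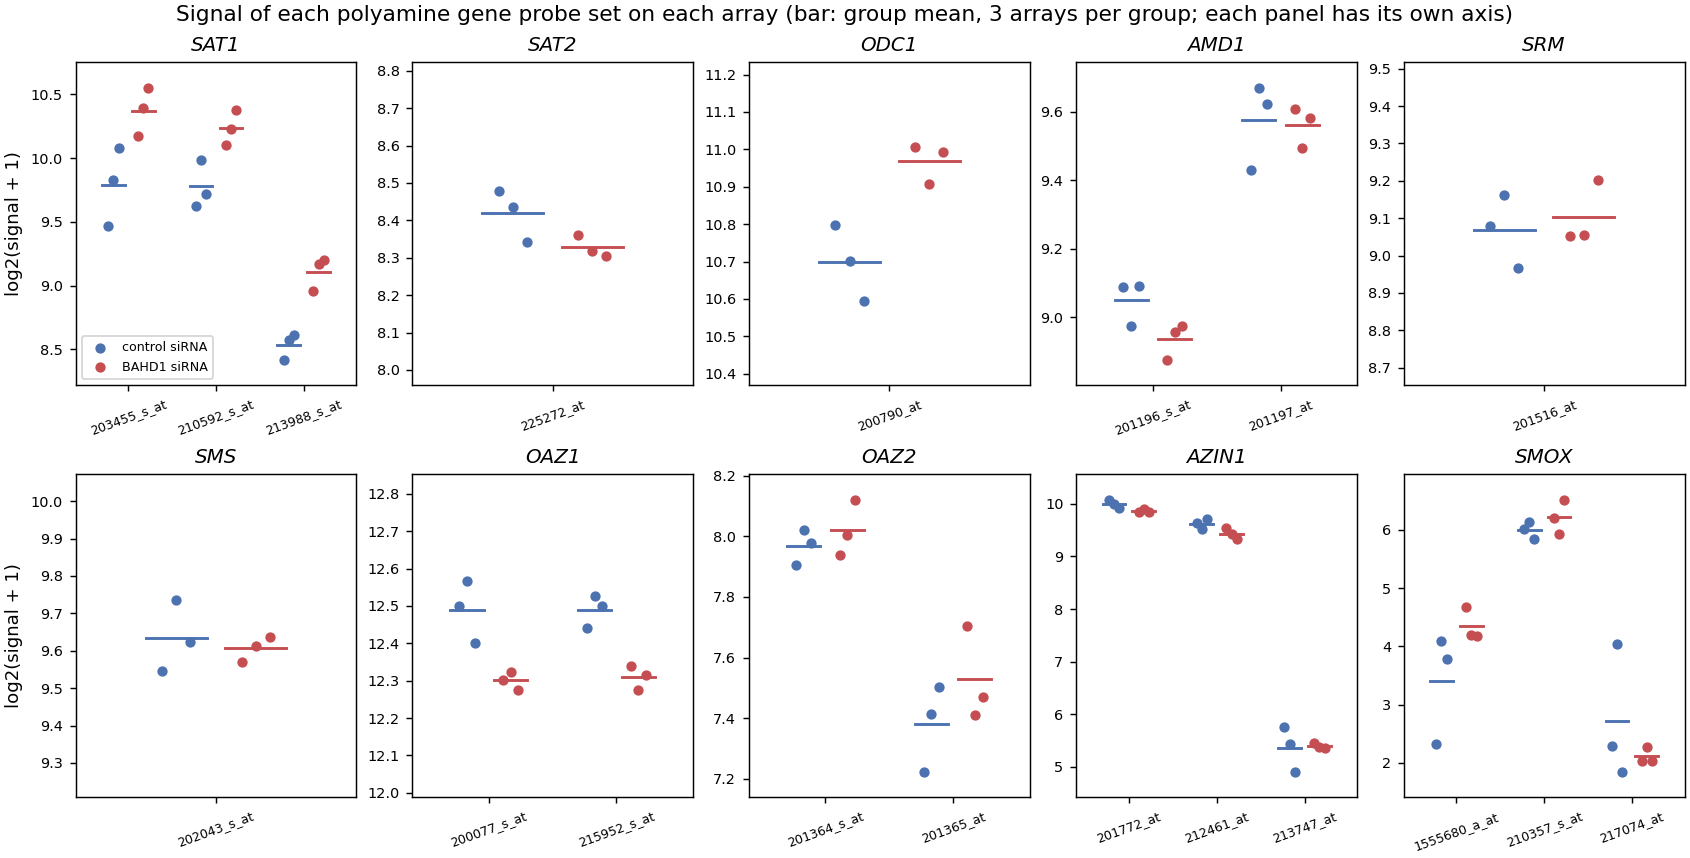
Log2(signal + 1) of all 19 member probe sets on the 6 arrays, in 1 panel per gene with its own vertical axis; points are arrays, blue for control siRNA and red for BAHD1 siRNA, and bars are group means. SAT1 (all 3 probe sets) and ODC1 show every red point above every blue one, as does the dim, untested SMOX 1555680_a_at. Both OAZ1 probe sets and AZIN1 201772_at show the opposite.

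ODC1, which encodes the first enzyme of polyamine synthesis, also rose. Its single probe set had signals of 1779, 1663 and 1546 in control cells and 2058, 1921 and 2038 in BAHD1 siRNA cells. The groups did not overlap, and the lowest knockdown array was BAHD1 siRNA replicate 2. Mean log2 signals were 10.70 ± 0.10 (SD, n = 3) against 10.97 ± 0.05 (SD, n = 3), a log2 fold change of 0.27 ± 0.07 (SE), or 121% of control. This call was lost whichever array was left out, at values of 0.22 to 0.32, and also with no filter on dim probe sets (0.27) or with the array medians centred (0.13). After quantile normalisation it was kept, at 0.31.

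None of the other synthesis genes was called. For AMD1, 201196_s_at read 543, 502 and 545 in control and 469, 496 and 502 in BAHD1 siRNA cells, where the highest knockdown array just passed the lowest control array. The log2 fold change was -0.12 ± 0.07 (SE). The second AMD1 probe set, 201197_at, read 689, 814 and 788 against 780, 721 and 765, with all knockdown arrays inside the control range. Its log2 fold change of -0.01 ± 0.08 (SE) has no settled sign, as it was 0.0038 after quantile normalisation.

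SRM, the spermidine synthase gene, had signals of 540, 572 and 500 in control cells and 530, 531 and 588 in BAHD1 siRNA cells. The groups overlapped (log2 fold change 0.03 ± 0.08, SE, and -0.10 with the array medians centred). SMS, the spermine synthase gene, read 746, 852 and 788 against 760, 781 and 795, with the knockdown arrays inside the control range. Its log2 fold change was -0.03 ± 0.07 (SE).

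OAZ1, an antizyme gene, was lower at both of its probe sets. Probe set 200077_s_at read 5788, 6063 and 5411 in control and 5052, 5127 and 4957 in BAHD1 siRNA cells, and 215952_s_at read 5559, 5895 and 5792 against 5185, 4955 and 5095. All knockdown arrays lay below all control arrays in each. The log2 fold changes were -0.19 ± 0.07 (SE) and -0.18 ± 0.06 (SE), or 87.8% and 88.3% of control, and neither was called. They depended on the normalisation. After quantile normalisation they were -0.083 and -0.092. With the array medians centred they were -0.33 (called) and -0.32, and without control replicate 3 the first was called at -0.23. Bright probe sets in general were somewhat lower in BAHD1 siRNA arrays: 42.1% of the brightest quartile were higher, against 60.9% of the dimmest quartile, and 13 of the 17 members lay in the brightest quartile. Both OAZ1 probe sets belonged to the brightest of 20 groups by signal, where the median log2 fold change was -0.06. They lay between the 5th and 25th percentiles of that group, -0.27 and -0.14.

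**Figure D2:**
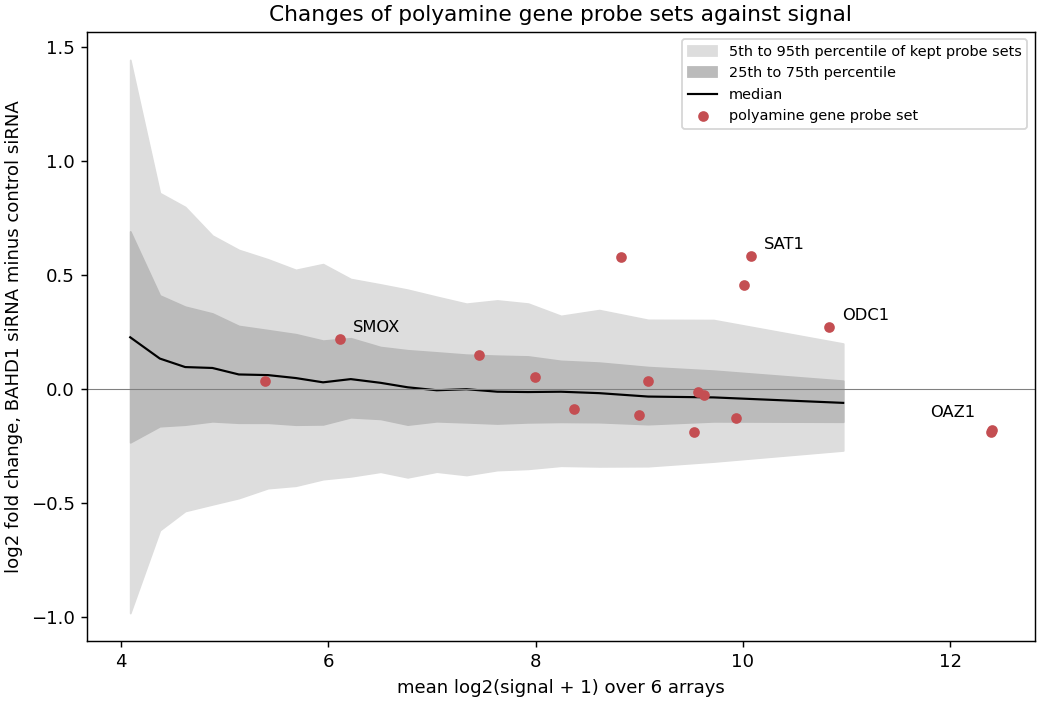
Log2 fold change (BAHD1 siRNA minus control siRNA) against mean log2(signal + 1) over 6 arrays; red points are the 17 kept member probe sets, and the bands and line give percentiles and median of all kept probe sets in 20 groups by signal, drawn up to the middle of the brightest group. The SAT1 points lie above the 95th percentile of probe sets of like signal, which is 0.30 to 0.35, and ODC1 lies above that of the brightest group, 0.20. Both OAZ1 probe sets belong to the brightest group and lie between its 5th and 25th percentiles, -0.27 and -0.14.

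OAZ2, the second antizyme gene, did not share this separation. Its probe set 201364_s_at read 239, 259 and 251 in control and 244, 256 and 277 in BAHD1 siRNA cells, and 201365_at read 149, 170 and 180 against 207, 169 and 177. The groups overlapped in both, and the log2 fold changes of 0.05 ± 0.09 (SE) and 0.15 ± 0.11 (SE) were not called. The first was -0.085 with the array medians centred.

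AZIN1, the antizyme inhibitor gene, was read by 3 probe sets. At 201772_at the signals were 1081, 1023 and 964 in control and 924, 957 and 922 in BAHD1 siRNA cells, separated by a narrow gap (log2 fold change -0.13 ± 0.07, SE). At 212461_at they were 795, 732 and 836 against 744, 690 and 640, and the groups overlapped (-0.19 ± 0.08, SE). The third, 213747_at, was dim, with 53.4, 42.1 and 29.1 against 43.1, 40.7 and 40.1, and gave 0.03 ± 0.23 (SE). No AZIN1 probe set was called, and the dim one was at -0.037 after quantile normalisation and -0.10 with the array medians centred.

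**Figure D3:**
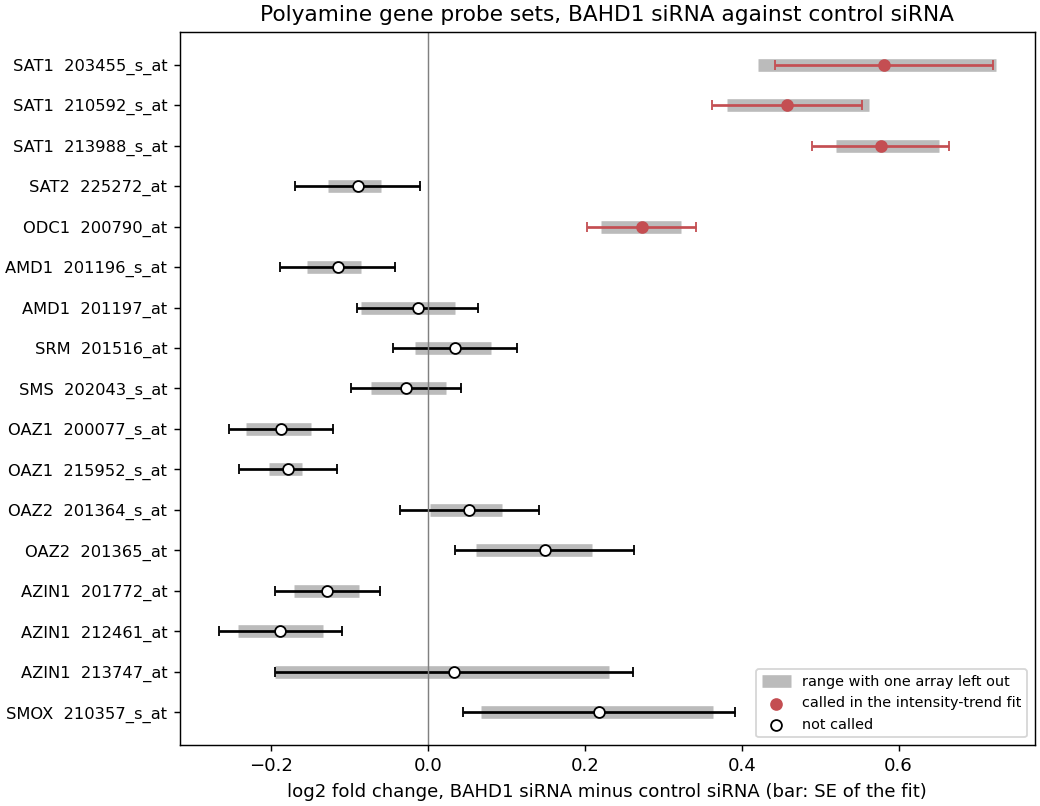
Log2 fold change (BAHD1 siRNA minus control siRNA) of the 17 kept member probe sets; points are estimates from 3 arrays per group, thin bars the SE of the fit, grey bars the range with 1 array left out, and red marks probe sets called in the intensity-trend fit. The 3 SAT1 probe sets lie at 0.46 to 0.58 and ODC1 at 0.27, while the remaining 13 lie between -0.19 and 0.22.

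Replicates of the members were close to each other. The median within-group SD was 0.09 on the log2 scale for the 17 kept member probe sets, 0.09 for all probe sets of the brightest quartile and 0.17 for all kept ones. On the signals as deposited, the kept probe sets of SAT1, AMD1, OAZ1 and OAZ2 gave one sign per gene, and those of AZIN1 did not. Averaged over its kept probe sets, SAT1 was at 0.54, OAZ1 at -0.18 and AZIN1 at -0.09.

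Outside the 10 members, 58 genes of neighbouring steps were listed, of which 45 had a kept probe set; each gene was represented by its brightest one. Of the 45, 2 rose (SLC7A2 and CTH) and 0 fell in the intensity-trend fit, where 5.52% of all genes represented this way were called. At an unadjusted p under 0.05 that fit held 8 higher and 3 lower, and 23.7% of all genes. The limma fit with one prior called 0 of the 45 and held 4 at an unadjusted p under 0.05, with 18.1% of all genes. Their median log2 fold change was 0.04, against 0.02 over all 12529 genes.

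Among 9 measured genes of arginine, ornithine and methionine supply, 1 rose and 8 were not called. SLC7A2, a transporter of arginine, lysine and ornithine, had signals of 131, 106 and 97.9 in control cells and 200, 210 and 157 in BAHD1 siRNA cells, with no overlap. Its log2 fold change was 0.75 ± 0.14 (SE; limma, adjusted p = 0.0148), and its second kept probe set was at 0.38 and not called. The call was lost without control replicate 2 (0.72) or BAHD1 siRNA replicate 2 (0.67). ASS1, which makes argininosuccinate on the way to arginine, was at 0.26 ± 0.09 (SE; limma, adjusted p = 0.114). The other arginine transporter on the list, SLC7A1, was at -0.03, with its 4 kept probe sets between -0.03 and 0.28.

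Among 12 measured genes of methylthioadenosine salvage and the methionine cycle, 1 rose and 11 were not called. CTH, which cleaves cystathionine to cysteine in the branch that leads sulfur away from methionine, had signals of 939, 910 and 968 in control cells and 1203, 1299 and 1528 in BAHD1 siRNA cells. The groups were far apart relative to the controls' range. The log2 fold change was 0.51 ± 0.08 (SE; limma, adjusted p = 0.00928), its second probe set was called as well at 0.51, and the call held with any single array left out. ADI1, a dioxygenase of the salvage route, was at -0.33 ± 0.11 (SE; limma, adjusted p = 0.127), with its second kept probe set at -0.015, and was called without knockdown replicate 1 (-0.44).

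The remaining 4 lists, with 24 measured genes, held 0 calls, and 3 genes had an unadjusted p under 0.05 in the intensity-trend fit (limma; 2 in the fit with one prior), against the shares of all genes given above. The 3 measured genes of other oxidation and antizyme steps included AZIN2 at 0.30 and the dim OAZ3 at 0.58 (SE 0.16 and 0.40). Of 7 measured polyamine transport genes, ATP13A3, a P-type ATPase that transports polyamines, was at 0.30, with its second kept probe set at -0.19, and CAV1, which encodes the caveolar protein caveolin, at -0.17. Without control replicate 1 ATP13A3 was at 0.14, and without control replicate 3 it was called at 0.45. The 4 hypusination genes, through which spermidine modifies the translation factor EIF5A, had both signs. DHPS was at -0.16, DOHH at -0.30, EIF5A at 0.09 and EIF5A2 at 0.18, the last with its 3 kept probe sets between -0.50 and 0.18. Of 10 measured regulators, NFE2L2, which encodes the oxidative stress factor NRF2, was nearest to the threshold, at 0.24 ± 0.07 (SE; limma, adjusted p = 0.0627). Its second kept probe set was at -0.58. The first passed without control replicate 3 (0.28), after quantile normalisation (0.27), with the stricter filter and with the replicate block. MYC, a known activator of ODC1 transcription, was at -0.06 and MGA, a partner of MAX, at -0.30, with its 3 kept probe sets between -0.30 and 0.25.

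**Figure D4:**
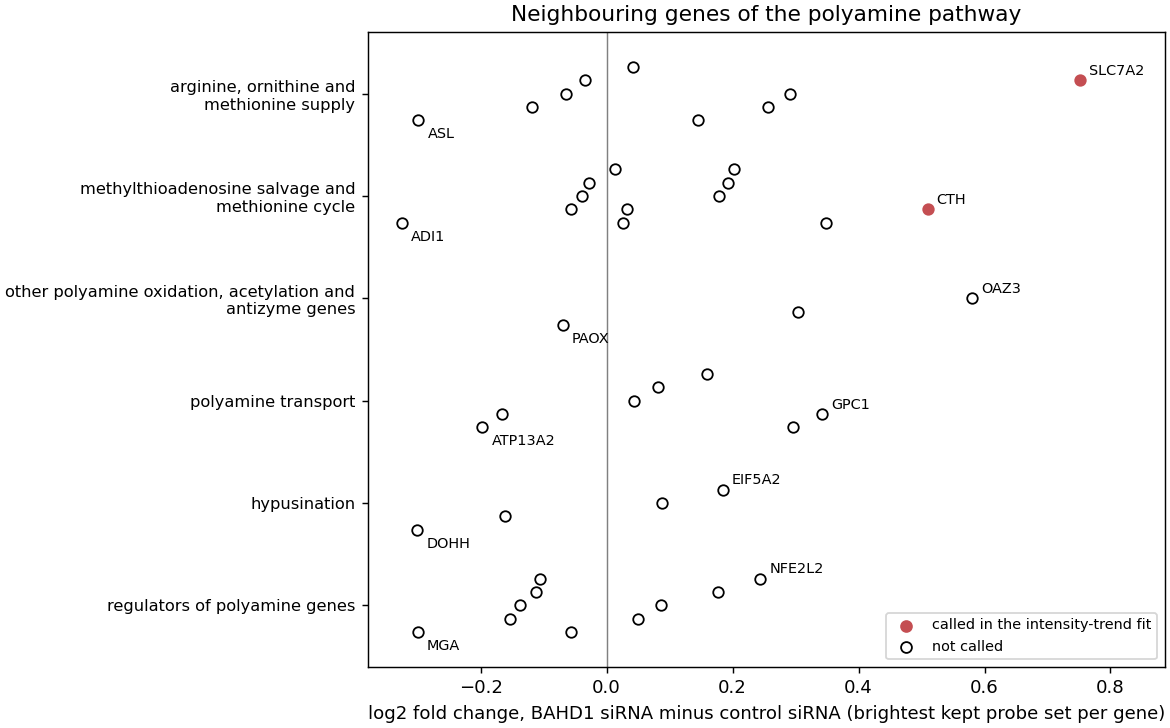
Log2 fold change (BAHD1 siRNA minus control siRNA) of the 45 measured neighbouring genes in 6 lists, 1 point per gene from its brightest kept probe set; red marks genes called in the intensity-trend fit. SLC7A2 at 0.75 and CTH at 0.51 are the 2 called points, and the other 43 lie between -0.33 and 0.58.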

How the data were processed

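Total RNA from the 6 samples was reverse transcribed with oligo(dT) primers and biotin-labelled in a one-cycle in vitro transcription, per the labels' protocols. The deposited table holds one linear signal intensity per probe set and array, scaled so that each array's mean without its top and bottom 2% was close to 100; GCOS and GCRMA are named in the submitters' processing notes, with no role for either. No genome build is named.

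Samples were grouped by title. After leaving out 62 control probe sets, those with a signal above the overall median of 17.9 in at least 3 of 6 arrays were kept (27458), and log2(signal + 1) was fitted in R 4.3.3 with limma 3.58.1 (eBayes with trend and robust, no covariates, Benjamini-Hochberg over all kept probe sets, threshold 0.05). The fit was tested on simulated data with planted changes larger than those of the members. Calls at the size of the member changes were not tested in this way. The number of arrays limits the precision, and detection calls were not used. The p-values rest on variances partly borrowed from all kept probe sets and concern these samples only.

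The members, lists, fit and alternatives were chosen with earlier results of these data known. Named are all members, BAHD1, every called gene of the neighbouring lists and otherwise the 2 smallest p-values per list; other genes were named after their values were seen. Probe sets were assigned by the platform annotation, with symbols updated through RefSeq gene identifiers. Alternatives were one prior, a replicate block, no filter, a filter at the 75th percentile, log2(signal + 16), quantile normalisation, centred array medians and leaving out each array.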

Additional observations from a re-analysis of the deposited data

How the results depend on the processing

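With one prior the fit called 0 of all probe sets, 0 members and 0 neighbouring genes, and with no filter on dim probe sets it called 398 probe sets and 2 members, SAT1 at 210592_s_at and 213988_s_at. Centring the array medians lowered every log2 fold change by 0.14, which left 2 members called (1 higher, 1 lower) and put 11.2% of all calls on the higher side, against 48.8% without centring. SAT1 at 213988_s_at stayed called there, and OAZ1 at 200077_s_at was at -0.33, or -0.19 relative to that shift. Centring on the kept probe sets only, chosen after seeing the data, gave 3 members and 38.0% of calls higher, and ODC1 was then at 0.25 and not called. With one array left out the fit called 177 to 1174 probe sets, 1 to 4 members (1 without control replicate 1 or without knockdown replicate 2 or 3, and 2 without control replicate 2) and 1 to 4 neighbouring genes. Among members and named neighbouring genes, signs changed only in uncalled member values: AMD1 at 201197_at was 0.0038 after quantile normalisation and lay between -0.085 and 0.035 when an array was dropped, SRM was -0.10 with the medians centred and lay between -0.016 and 0.081 when an array was dropped, SMS likewise between -0.073 and 0.023, OAZ2 at 201364_s_at was -0.085 with the medians centred, and AZIN1 at 213747_at was -0.037 after quantile normalisation, -0.10 with the medians centred and between -0.20 and 0.23 when an array was dropped. The causes were not tested.

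Over all kept probe sets, deviations from the group means correlated at 0.010, 0.010 and 0.024 between same-numbered arrays. These values cannot tell whether arrays were paired by replicate number, as single probe sets may share replicate differences. With a replicate block the fit called 1629 probe sets, 4 members and 3 neighbouring genes. The SEs of the members moved in both directions. That of SAT1 at 203455_s_at went from 0.14 to 0.064, and that of SMOX at 210357_s_at from 0.17 to 0.18. Dim probe sets, such as those of SMOX and BAHD1, allow no statement on small differences.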
